A study of Mus musculus with 4 samples.

Results

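The sterol synthesis and SREBP2 target genes examined here are *Hmgcs1*, *Sqle*, *Idi1*, *Fdps*, *Fdft1*, *Lss*, *Insig1* and *Srebf2*. They are 8 of the 56748 gene IDs in the count files and were taken by name, through the mouse GENCODE symbol of each Ensembl ID. Of the 8 genes, 7 had reads and 6 had enough reads to be tested. In myoblasts depleted of *Hnrnpl*, *Insig1* and *Hmgcs1* rose, to 1.84-fold and 1.52-fold of their scrambled levels, and the other 4 tested genes did not pass the test. With the batch number as a replicate block, *Insig1* passed and *Hmgcs1* did not (adjusted p = 0.0534, edgeR), and neither passed in the 4 DESeq2 configurations or with the chromosome medians removed.

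C2C12 is an established line of mouse myoblasts, the proliferating precursors of muscle fibres, and the labels give its genotype as WT. The cells were transfected with plasmids for scrambled shRNA, or with a cocktail of 3 shRNAs against *Hnrnpl*, which encodes a splicing regulator that binds CA-rich RNA. The plasmids also carried an eGFP reporter, stable lines were selected with puromycin, and growth medium kept the cells as myoblasts. RNA of 2 scrambled and 2 *Hnrnpl* knockdown cultures was sequenced directly on nanopore flow cells, with 1 library of each group in each of the 2 batches named in the labels. Different passages of 1 stable line served as the libraries of each group, so the tests measure the spread between passages, and the effect of the knockdown and differences between the selected lines cannot be told apart.

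Cholesterol is built from acetyl-CoA through mevalonate, isoprenoid phosphates, squalene and lanosterol. SREBP2, the protein of *Srebf2*, is the transcription factor that switches on the genes of this route when membrane sterol is low. It is held in the endoplasmic reticulum with SCAP by the INSIG proteins and, when sterol falls, is cut in the Golgi so that its N-terminal part enters the nucleus. There it binds sterol regulatory elements, commonly beside CCAAT boxes bound by NF-Y and GC boxes bound by Sp1. *Insig1* is itself a target, which closes a feedback loop.

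The 250 bases before the start of the canonical GENCODE transcript were searched on both strands for the letters of these elements. For *Idi1*, *Fdft1* and *Srebf2* the whole window lies within annotated exons, counting all genes on both strands. The sterol regulatory element TCACNCCAC was found before *Hmgcs1* only, and occurs in 1.12% of 21630 promoters of protein-coding genes of the same length. A shorter form, TCACNCCA, was tried after the first search and contains the longer one. It was found before *Hmgcs1* and *Srebf2*, against 3.43% of all promoters, 3.13% of those of tested genes and 0 of 15 other genes for enzymes of the route. The E-box CACGTG, a palindrome that SREBPs can also bind, was found before *Insig1*, against 6.29% of all promoters, 8.59% of those of tested genes and 2 of the 15 other genes for enzymes of the route (*Hsd17b7* and *Sc5d*). The CCAAT box was found before 8 of the 8 genes, against 36.5% of all promoters and 9 of those 15 genes. The GC box GGGCGG was found before 5 of the 8 genes, *Hmgcs1*, *Sqle*, *Lss*, *Insig1* and *Srebf2*, against 36.4% of all promoters, 53.1% of those of tested genes and 9 of those 15. These matches describe the letters in the windows and are not measured binding sites.

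The first 3 sequences are shown because they hold the 2 promoter matches to the short form of the sterol regulatory element among the 8 genes and the only match to the E-box, and because 2 of them stand before the 2 genes that passed the test. All were read 5′ to 3′ on the strand of the gene from the GRCm39 genome, and capitals mark the motif in either orientation. The element before *Srebf2* lies at chr15:82031297-82031326 on the forward strand, that before *Hmgcs1* at chr13:120151739-120151768 on the forward strand, and the stretch before *Insig1* at chr5:28276124-28276314 on the forward strand. In the *Insig1* stretch the first run of capitals is a CCAAT box read on the opposite strand and the second is the E-box.
Srebf2 SRE core: atgacgcaccaTCACCCCAtgagccgcttc
Hmgcs1 SRE core: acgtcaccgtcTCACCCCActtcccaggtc
Insig1 promoter: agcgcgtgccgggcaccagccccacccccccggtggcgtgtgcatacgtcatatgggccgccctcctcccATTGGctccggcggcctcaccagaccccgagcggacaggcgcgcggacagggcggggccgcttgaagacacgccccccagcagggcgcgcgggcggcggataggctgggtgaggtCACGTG

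The next 4 sequences show 1 CCAAT box each of 4 enzyme genes, the motif that all 8 promoters hold. They lie at chr15:59186808-59186834 on the forward strand for *Sqle*, chr14:63415496-63415522 on the reverse strand for *Fdft1*, chr10:76367366-76367389 on the forward strand for *Lss* and chr3:89009375-89009401 on the reverse strand for *Fdps*.
Sqle CCAAT box: tgcgcgctctcATTGGttcggacggcg
Fdft1 CCAAT box: tttccagctctCCAATcaaattctagg
Lss CCAAT box: gtgatgctctgATTGGccgagctc
Fdps CCAAT box: aggtaatttagCCAATcagcgaactag

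**Figure D1:**
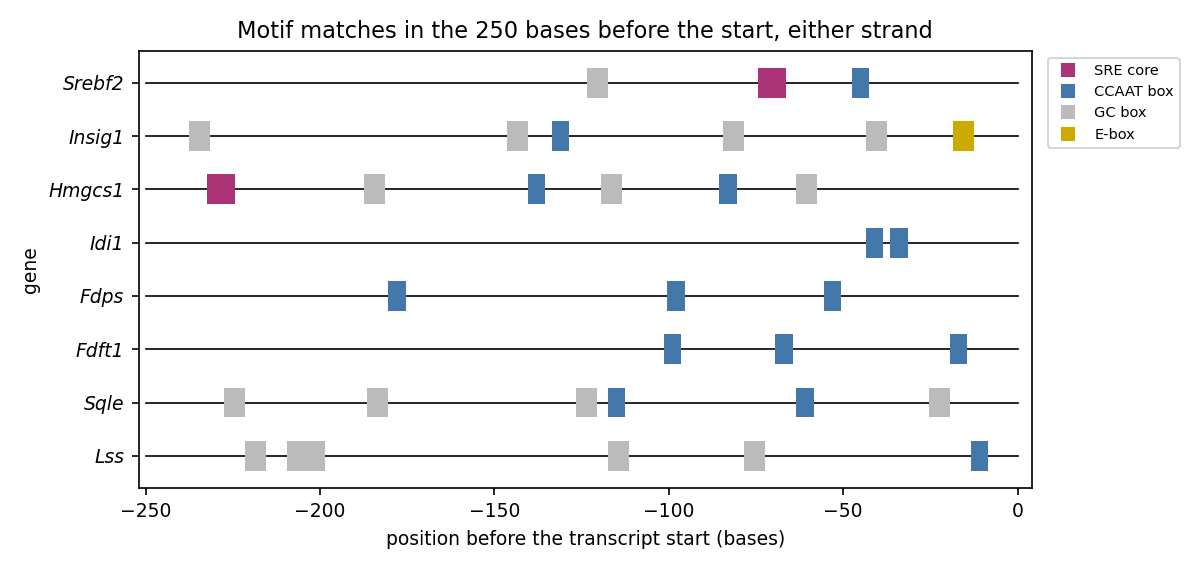
Motif matches in the 250 bases before the canonical transcript start of the 8 genes. The x axis is the position in bases, with the start at 0, each line is a gene, and coloured blocks are matches on either strand. All 8 lines carry a CCAAT box, *Hmgcs1* and *Srebf2* carry a short sterol regulatory element, and *Insig1* carries the E-box.

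Each library had from 1229424 to 1676911 reads assigned to genes, and a further 42.2% to 43.5% of the reads in each library were not assigned to a gene, among them those mapped with low quality (22.7% to 23.8%) or lying on more than 1 gene (up to 16.5%). A count of 0 allows up to 1.79 to 2.44 CPM (3 counts per library), a limit that covers counting error only. *Hnrnpl* had 358 and 656 reads in the scrambled libraries against 242 and 258 in the knockdown libraries. Its log2 fold change was -0.78 (adjusted p = 0.0112, edgeR quasi-likelihood test with Benjamini-Hochberg adjustment), and it fell by 0.48 without scrambled 2, when the adjusted p was 0.194. The adjusted p was under 0.05 in 12 of 16 alternative analyses, and was also 0.150 without knockdown 1 and 0.0567 and 0.0670 in the parametric fits of DESeq2. Of the 8 myoblast markers checked, 7 had reads. Their summed level of 13560 to 15890 CPM per library was nearly all *Vim*, a general mesenchymal gene, at 13090 to 15260 CPM, while *Pax7* had none and *Myod1* had 1 read in all. Of the 8 myotube markers, 6, among them *Myog*, had no reads. All levels here are of bulk RNA, in which fewer cells of a type and less RNA per cell cannot be told apart. Median log2 fold changes of whole chromosomes ran from -0.37 on chromosome 9 to 0.30 on chromosome 16, leaving out the mitochondrial and Y chromosomes, and the median of its own chromosome is therefore given beside each of the 6 sterol genes tested.

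Knockdown was compared with scrambled to find out which transcripts differ when *Hnrnpl* is reduced. Of the 6 sterol genes tested, 2 were higher at an adjusted p under 0.05 (edgeR), where 2.51% of the 8670 genes tested were higher at that threshold, and none was lower, where 3.44% were. With the replicate block 1 of the 6, *Insig1*, passed. At an unadjusted p under 0.05, 3 of the 6 were higher, against 10.3% of all genes tested. Normalized counts, that is counts divided by TMM-corrected relative library size, of both knockdown libraries lay above both scrambled libraries for 3 of the 6, against 26.4% of all genes tested, and below them for 0 of the 6, against 26.0%. The fold change was positive for 5 of the 6, with a median log2 fold change of 0.32, where the median of all genes tested was -0.001 and 49.9% were positive. Within batch 1 the median log2 ratio of the 6 genes was 0.56 and within batch 2 it was 0.20.

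**Figure D2:**
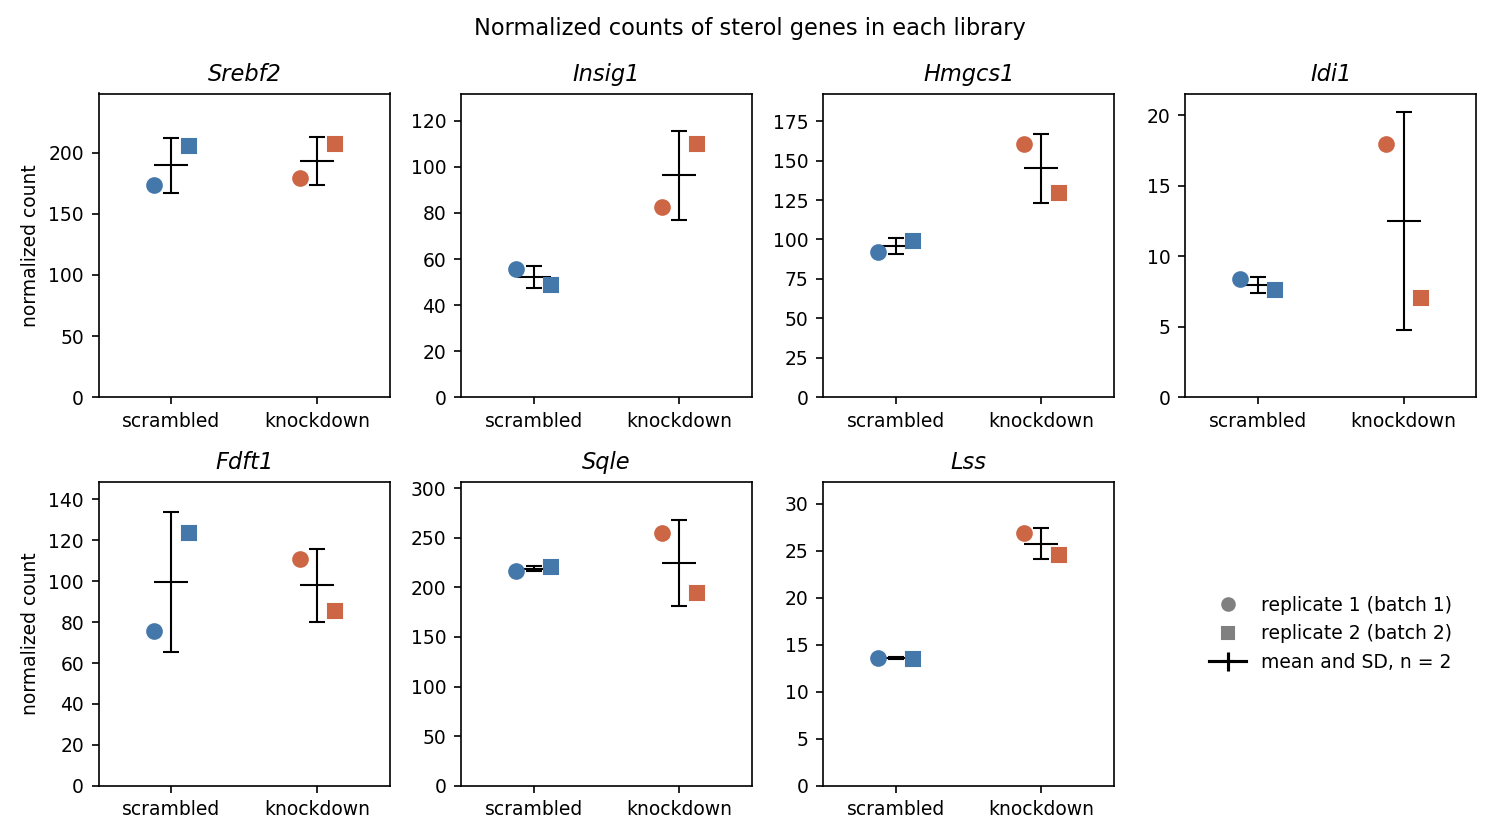
Normalized counts (y axis, from 0, with its own scale in each panel) of the 7 sterol genes with reads, in scrambled and *Hnrnpl* knockdown libraries. Circles are replicate 1 and squares replicate 2, and the bars give the mean and SD of 2 libraries. For *Insig1*, *Hmgcs1* and *Lss* both knockdown points lie above both scrambled points, and for the other 4 genes the groups overlap.

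Among the regulators, *Srebf2* (ENSMUSG00000022463.9, GRCm39 chr15:82031382-82093201, forward strand) had 166 and 244 reads in the scrambled libraries against 180 and 177 in the knockdown libraries. Its normalized counts were 173.9 and 205.4 in scrambled 1 and 2 against 179.5 and 207.0 in knockdown 1 and 2. The log2 ratio of knockdown to scrambled was 0.05 in batch 1 and 0.01 in batch 2, and both libraries of batch 2 lay above both of batch 1. The log2 fold change was 0.02, with a 95% interval from -0.31 to 0.35 (adjusted p = 0.962), and its chromosome had a median of -0.10. Its sign turned without scrambled 1 (-0.09) and without knockdown 2 (-0.09).

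*Insig1* (ENSMUSG00000045294.12, chr5:28276315-28283668, forward strand), which encodes the sterol-sensitive anchor that keeps the SCAP and SREBP complex in the endoplasmic reticulum, had 53 and 58 reads in the scrambled libraries against 83 and 94 in the knockdown libraries. Its normalized counts were 55.5 and 48.8 in the scrambled libraries against 82.8 and 109.9 in the knockdown libraries, or 52.2 ± 4.75 (SD, n = 2) against 96.3 ± 19.2 (SD, n = 2). Both knockdown libraries lay above both scrambled ones, knockdown 2 furthest, and the difference was seen within batch 1 (log2 ratio 0.58) and within batch 2 (1.17). *Insig1* rose by a log2 fold change of 0.88 (SE 0.21, adjusted p = 0.0163, edgeR, where SE is the standard error), or 1.84-fold (95% interval 1.36 to 2.50), on a chromosome whose median was 0.23. A larger fold change was measured for 2.60% of the genes tested. The adjusted p was under 0.05 in 9 of 16 alternative analyses. It was 0.109 with the chromosome medians removed (log2 fold change 0.65), 0.0741 without scrambled 2 (0.78), 0.129 without knockdown 2 (0.67), and 0.111 to 0.410 in the 4 DESeq2 configurations, at a log2 fold change of 0.88.

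Of the early enzymes, *Hmgcs1* (ENSMUSG00000093930.3, chr13:120151915-120170470, forward strand), the cytosolic HMG-CoA synthase of the mevalonate route, had 88 and 118 reads in the scrambled libraries against 161 and 111 in the knockdown libraries. Normalized, these were 92.2 and 99.4 in the scrambled libraries against 160.5 and 129.8 in the knockdown libraries, or 95.8 ± 5.05 (SD, n = 2) against 145.2 ± 21.7 (SD, n = 2). The groups did not overlap, and the libraries of the knockdown stood further apart than those of the scrambled control. *Hmgcs1* rose by a log2 fold change of 0.60 (SE 0.17, adjusted p = 0.0450, edgeR), or 1.52-fold (95% interval 1.18 to 1.95), where its chromosome had a median of 0.23. The log2 ratio was 0.80 in batch 1 and 0.39 in batch 2. With the replicate block the adjusted p was 0.0534, and in 7 of 16 alternative analyses it was under 0.05. It was 0.315 with the chromosome medians removed (log2 fold change 0.38), 0.247 to 0.664 in the 4 DESeq2 configurations, 0.163 without scrambled 1, 0.106 without scrambled 2 and 0.297 without knockdown 1 (0.44).

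*Idi1* (ENSMUSG00000058258.16, chr13:8935537-8942487, forward strand), the isomerase that makes dimethylallyl diphosphate, had 8 and 9 reads in the scrambled libraries against 18 and 6 in the knockdown libraries. At 4.88 to 13.1 CPM it did not pass the filter on low counts and was not tested. The highest and the lowest library were both knockdown libraries, so the groups overlapped. Its canonical transcript also matches 2 intronless processed pseudogenes, *Idi1-ps1* at 99.3% identity and *Idi1-ps2* at 95.2%. On *Idi1-ps1*, 13 and 18 reads were counted in the scrambled libraries against 17 and 12 in the knockdown libraries, so reads of near-identical sequence were listed under both genes and the level of either is uncertain.

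*Fdps* (ENSMUSG00000059743.13, chr3:89000888-89019213, reverse strand), the synthase of farnesyl diphosphate from which sterols and prenyl groups both branch, was listed at 0 reads in all 4 libraries. Its canonical transcript matches 4 intronless processed pseudogenes elsewhere in GRCm39 at 93.0% to 98.7% identity, and the whole transcript, free of errors, mapped to *Fdps* itself with a mapping quality of 60 (52 for that of *Idi1* to its own gene). The closest, *Gm3571* at chr10:93614473-93615635, covers 89.3% of the transcript and had 19 and 21 reads in the scrambled libraries against 20 and 17 in the knockdown libraries, and the other 3 had none. Whether reads of *Fdps* were set aside or counted on a copy was not tested, so no level or fold is given for it.

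None of the 3 genes for the squalene and lanosterol steps passed the test. *Fdft1* (ENSMUSG00000021273.12, chr14:63382189-63417027, reverse strand), squalene synthase, had 72 and 147 reads in the scrambled libraries against 111 and 73 in the knockdown libraries. Normalized counts were 75.4 and 123.8 in the scrambled libraries against 110.7 and 85.4 in the knockdown libraries. The groups overlapped wholly and the batches went opposite ways, with log2 ratios of 0.55 in batch 1 and -0.54 in batch 2. The log2 fold change was -0.03 (95% interval -0.48 to 0.42, adjusted p = 0.949, edgeR), its chromosome having a median of -0.36, and 0.33 after that median was removed.

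*Sqle* (ENSMUSG00000022351.15, chr15:59186869-59203043, forward strand), the squalene epoxidase that carries out the first oxygenation of the route, had 207 and 262 reads in the scrambled libraries against 256 and 166 in the knockdown libraries. Its normalized counts were 216.9 and 220.6 in the scrambled libraries against 255.2 and 194.2 in the knockdown libraries. The scrambled libraries lay between the knockdown libraries. The log2 fold change was 0.04 (95% interval -0.29 to 0.38, adjusted p = 0.909, edgeR), with a log2 ratio of 0.24 in batch 1 and -0.18 in batch 2, on a chromosome whose median was -0.10. Without knockdown 1 the log2 fold change was -0.17.

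*Lss* (ENSMUSG00000033105.13, chr10:76367298-76392976, forward strand), lanosterol synthase, had 13 and 16 reads in the scrambled libraries against 27 and 21 in the knockdown libraries. Normalized, these were 13.6 and 13.5 in the scrambled libraries against 26.9 and 24.6 in the knockdown libraries. Both knockdown libraries lay above both scrambled ones, by a log2 ratio of 0.98 in batch 1 and 0.87 in batch 2. The log2 fold change of 0.92 (standard error 0.35) was the largest of the 6 genes, on a chromosome with a median of 0.24. It did not pass the test over all genes (unadjusted p = 0.0165, adjusted p = 0.127, edgeR), and in 0 of 16 alternative analyses was its adjusted p under 0.05. With under 30 reads in any library, its 95% interval runs from 1.14-fold to 3.16-fold.

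**Figure D3:**
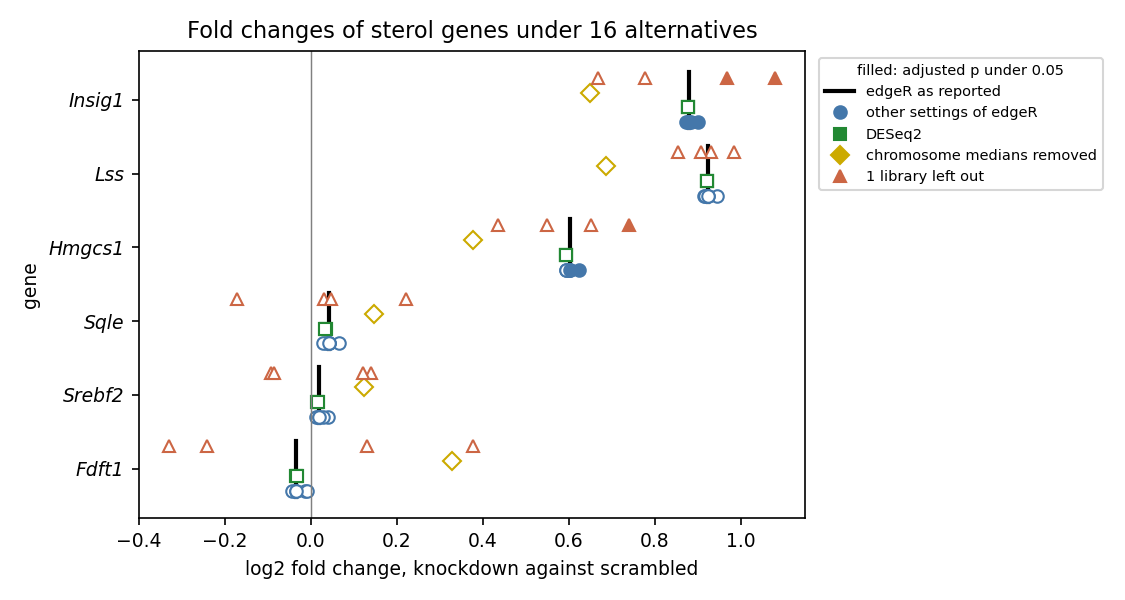
Log2 fold change of knockdown against scrambled (x axis) for the 6 sterol genes tested, in the reported edgeR analysis (bar) and 16 alternatives (symbols, filled at an adjusted p under 0.05). The values of *Insig1*, *Lss* and *Hmgcs1* lie above 0 under all 16, from 0.38 upward, and those of *Sqle*, *Srebf2* and *Fdft1* lie on both sides of 0.

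Several of these genes share exons with a gene on the opposite strand, and the sources used here do not say whether strand was used in counting. Of the canonical transcript of *Fdft1*, 34.1% lies opposite exons of *Ctsb*, which had 3045 reads over the 4 libraries, and of that of *Sqle* 16.7% lies opposite *Washc5*, which had 809. The partners of *Hmgcs1* (*Nim1k* and *Gm48342*), *Lss* (*Gm15343*) and *Srebf2* (*Gm56711*) had 0 to 2 reads, and *Insig1* had no partner. On the same strand, the canonical transcript of none of the 8 genes shares exon bases with another counted gene in the annotation used here. Their other transcripts were not compared. A run of ACACACAC, a CA repeat of the kind hnRNP L binds, was found in the canonical transcript of 0 of the 8 genes, against 17.0% of the tested protein-coding genes. Introns and other CA-rich stretches, which hnRNP L also binds, were not searched.

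The other 15 genes of the route for cholesterol synthesis were examined as a list. All had reads and 13 were tested. Of these 11 had a positive and 2 a negative fold change, with a median log2 fold change of 0.34, and 0 passed the test over all genes in either direction, where 2.51% of all genes tested were higher and 3.44% lower. At an unadjusted p under 0.05, 3 were higher, against 10.3% of all genes tested. Both knockdown libraries lay above both scrambled ones for 8 of the 13, against 26.4%, and below them for 2, *Tm7sf2* and *Ebp*, against 26.0%. *Mvk*, mevalonate kinase, had 38 and 61 reads in the scrambled libraries against 83 and 57 in the knockdown libraries (log2 fold change 0.71, adjusted p = 0.0693). *Nsdhl*, a sterol C-4 decarboxylase, had 43 and 62 in the scrambled libraries against 76 and 64 in the knockdown libraries (0.62, adjusted p = 0.0892). *Mvd*, which makes isopentenyl diphosphate, had 14 and 25 in the scrambled libraries against 27 and 28 in the knockdown libraries (0.71, adjusted p = 0.224). These 3 were picked by their unadjusted p, after their values were seen. With the chromosome medians removed, *Mvk* was at 0.47, *Nsdhl* at 0.72 and *Mvd* at 0.79. The most negative value was that of *Tm7sf2*, a sterol C-14 reductase, at -0.65 (adjusted p = 0.287).

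**Figure D4:**
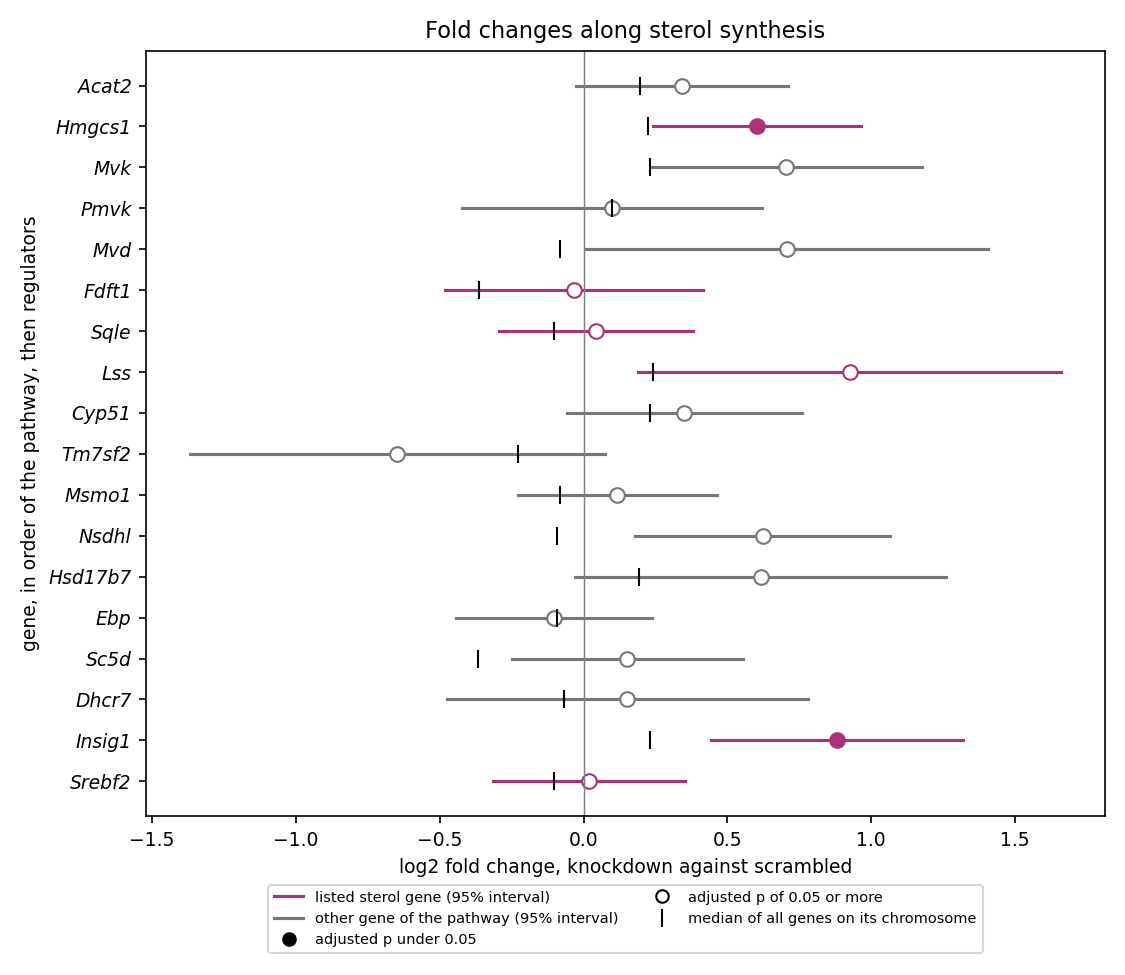
Log2 fold change of knockdown against scrambled (x axis) with its 95% interval for tested enzyme genes in order of the route from top to bottom, then *Insig1* and *Srebf2*. Filled points have an adjusted p under 0.05, and black ticks mark the median of all tested genes of the same chromosome. Only *Hmgcs1* and *Insig1* are filled, and *Tm7sf2* has the most negative value, -0.65.

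In the machinery that senses sterol and cuts the SREBPs, 9 of 10 genes were tested and 0 passed in either direction, where 2.51% of all genes tested were higher and 3.44% lower, with 4 positive and 5 negative values and a median log2 fold change of -0.03. *Insig2*, the second INSIG gene, was at 0.33 (adjusted p = 0.455), *Scap*, the escort of the SREBPs, at -0.03 (adjusted p = 0.961), and *Srebf1*, which encodes SREBP1, at 0.13 (adjusted p = 0.806). At an unadjusted p under 0.05, 2 of the 9 were higher, against 10.3% of all genes tested, and 0 lower, against 11.5%. These were *Faf2*, which takes part in the degradation of INSIG1, at 0.56 (adjusted p = 0.0870) and *Mbtps1*, which encodes the site-1 protease that first cuts the SREBPs, at 0.45 (adjusted p = 0.165). With the chromosome medians removed, *Faf2* was at 0.34 and *Mbtps1* at 0.53.

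The genes of fatty acid synthesis and desaturation, a route driven mainly by SREBP1, included 3 of 11 tested genes that fell, where 3.44% of all genes tested fell, and 0 that rose, where 2.51% did, with a median log2 fold change of -0.18. All 3 are desaturases encoded on chromosome 19, whose median was -0.23. *Scd1*, a stearoyl-CoA desaturase, had 351 and 481 reads in the scrambled libraries against 205 and 136 in the knockdown libraries. Its log2 fold change was -1.08 (SE 0.16, adjusted p = 0.000360), and its adjusted p was under 0.05 in 16 of 16 alternative analyses. *Scd2*, a second such desaturase, had 1210 and 1966 reads in the scrambled libraries against 821 and 425 in the knockdown libraries. It fell by a log2 fold change of 1.15 (SE 0.19, adjusted p = 0.00104), with an adjusted p under 0.05 in 12 of 16 alternative analyses and of 0.0907 to 0.183 in the DESeq2 configurations. *Fads2*, the delta-6 desaturase of polyunsaturated fatty acids, had 98 and 178 reads in the scrambled libraries against 38 and 70 in the knockdown libraries. It fell by a log2 fold change of 1.12 (SE 0.26, adjusted p = 0.0139), by 0.64 without knockdown 1, when the adjusted p was 0.220, and by 1.75 without knockdown 2. Its adjusted p was under 0.05 in 9 of 16 alternative analyses, and was 0.0976 with robust fitting, 0.0680 with the chromosome medians removed and 0.177 to 0.509 in the DESeq2 configurations. At an unadjusted p under 0.05, 5 of the 11 were lower, against 11.5% of all genes tested, and 0 higher, against 10.3%. Besides the 3 desaturases these were *Fads1*, the delta-5 desaturase, at -0.55 (adjusted p = 0.0670) and *Elovl5*, an elongase of polyunsaturated fatty acids, at -0.50 (adjusted p = 0.0929). *Fads1* also lies on chromosome 19, and *Elovl5* on chromosome 9, whose median was -0.37. With the chromosome medians removed, *Fads1* was at -0.32 and *Elovl5* at -0.13. *Fasn*, fatty acid synthase, was at 0.24 (adjusted p = 0.418) and *Acly*, which supplies cytosolic acetyl-CoA, at 0.15 (adjusted p = 0.602). Whether the sterol genes and these desaturases differ in their response as groups was not tested.

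**Figure D5:**
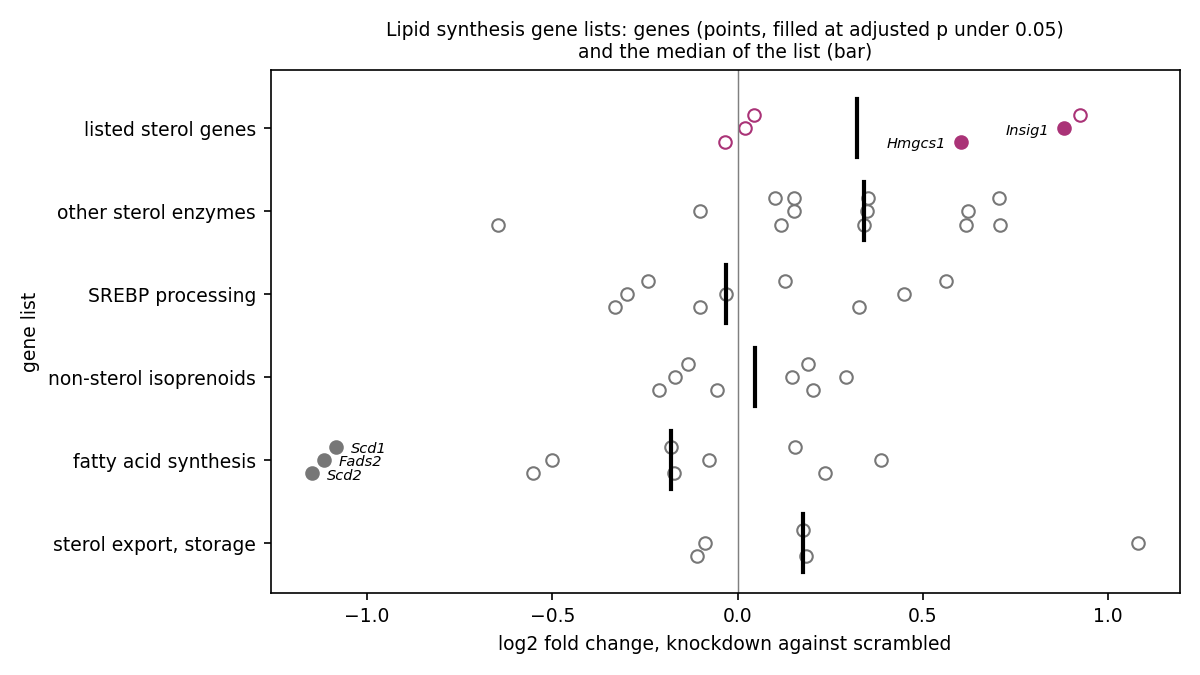
Log2 fold change of knockdown against scrambled (x axis) of each tested gene (points) in 6 lists of lipid genes (rows), with the median of each list as a bar. Points are filled at an adjusted p under 0.05. The medians are 0.32 for the 6 sterol genes, 0.34 for the other sterol enzymes and -0.18 for fatty acid synthesis, whose 3 filled points all lie near -1.1.

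Some markers of cell state differed beside these genes, and others did not. Of the 5 myoblast markers tested, 2 fell, where 3.44% of all genes tested did, and 0 rose, where 2.51% did. *Cdh15*, the myoblast cadherin, had 113 and 152 reads in the scrambled libraries against 25 and 14 in the knockdown libraries, with a log2 fold change of -2.55 (adjusted p = 2.03e-06, edgeR, under 0.05 in 16 of 16 alternative analyses). *Des*, desmin, fell by 0.56 (adjusted p = 0.0309, under 0.05 in 10 of 16). With the replicate block its adjusted p was 0.0526, and it was 0.297 without scrambled 2, 0.0970 without knockdown 1, 0.117 without knockdown 2 and 0.208 and 0.234 in the parametric fits of DESeq2. The other 3 did not pass the test. *Met*, a growth factor receptor, was higher in both knockdown libraries, at a log2 fold change of 0.53 (adjusted p = 0.0599), *Myf5*, a myogenic transcription factor, was at -0.16 (adjusted p = 0.616) and *Vim* at -0.15 (adjusted p = 0.610). With the chromosome medians removed, *Met* was at 0.25, *Myf5* at -0.40 and *Vim* at -0.10.

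Of the 7 adipocyte markers 2 were tested, of which 1 rose and 1 fell, where 2.51% and 3.44% of all genes tested did. *Pparg*, a regulator of adipocyte genes, had 21 and 31 reads in the scrambled libraries against 72 and 49 in the knockdown libraries and rose by 1.42 (adjusted p = 0.00271, edgeR, under 0.05 in 13 of 16 alternative analyses). Its adjusted p was 0.0963 and 0.110 in the parametric fits of DESeq2 and 0.0566 without knockdown 1. *Cebpa*, another such regulator, went the other way, from 12 and 14 reads to 3 and 2 (adjusted p = 0.0316, under 0.05 in 6 of the 14 alternative analyses that gave it a value). *Adipoq*, *Fabp4*, *Plin1*, *Lep* and *Cidec* had 0 or 1 read in any library. The summed level of the 7 was 23.8 and 28.03 CPM in the scrambled libraries against 55.3 and 41.5 in the knockdown libraries, and the excess in the knockdown was that of *Pparg* alone, at 15.1 and 18.5 CPM against 52.4 and 39.9. The 6 macrophage markers summed to 22.3 and 25.1 CPM in the scrambled libraries against 27.6 and 41.5 in the knockdown libraries, higher in both knockdown libraries. Most of this was *Cd14*, at 19.5 to 35.8 CPM (adjusted p = 0.373), while *Adgre1* and *Ptprc* had no reads and the other 3 had 0 to 4 reads in any library. The part of these differences in the result on the sterol genes was not tested.

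The sterol genes did not share 1 profile over the libraries. Centred log2 CPM of the 6 tested genes had medians of -0.34 and -0.12 in scrambled 1 and 2 against 0.22 and 0.13 in knockdown 1 and 2. *Lss*, *Hmgcs1* and *Insig1* followed this order of the groups, *Srebf2* was lowest in both libraries of batch 1, and *Fdft1* was highest in scrambled 2. The 5 genes outside the lists whose profiles were closest to these medians were *Ehbp1*, *Glis2*, *Ubxn4*, *Mfsd1* and *Isg20l2*, at root mean square differences of 0.0324 to 0.0378 over the 4 libraries.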

How the data were processed

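Direct RNA libraries of scrambled (2) and *Hnrnpl* knockdown (2) C2C12 myoblasts were used. Reads were basecalled with guppy and aligned to GRCm39 by the authors (minimap2 2.17), and the deposited files hold the raw counts per gene that HTSeq 0.9.1 gave. The annotation release and the strand setting are not given in the sources used here. HTSeq listed reads with low mapping quality apart from the genes, and how many of them came from each gene was not tested. Of 56748 gene IDs, 56017 matched GENCODE vM39, which gave symbols and positions. Rows that name no gene held 42.2% to 43.5% of the reads and were left out.

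Counts were tested in edgeR 4.0.16 (R 4.3.3) with TMM, filterByExpr and the quasi-likelihood test on all 8670 genes that passed the filter, with Benjamini-Hochberg adjustment over them, and the script was tested on simulated data. Genes called, 481 in number, had an adjusted p under 0.05, a mean normalized count over 10 and a log2 fold change beyond 0.5 in either direction. Intervals are 95% intervals of the fitted fold change. An exact permutation test of 2 against 2 libraries cannot go below p = 0.333 and was not used.

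The labels give the replicate number as the batch, so the numbers pair the libraries. Over 4501 genes with a mean of at least 50, the deviation of library 1 from its group mean correlated between groups at 0.00258. The block is given beside a result where it changes the call. The 16 alternatives were robust fitting, RLE factors, upper quartile factors, testing with no filter or with 10 counts required in every library, the replicate block, 4 DESeq2 1.42.0 configurations, mitochondrial genes and *Rn18s* left out, chromosome medians removed, and each of the 4 libraries left out. With 1 library left in a group, that library is assumed to vary like the others.

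Canonical transcripts of the 8 genes were mapped to GRCm39 with minimap2 2.31-r1302 to find copies, and promoter windows were read from that genome. The 8 genes and all lists were chosen with earlier results of these data known, and lists are described by counts and medians with no test. Named genes are the 8, *Hnrnpl*, listed genes with an adjusted p under 0.05 and the 5 nearest profiles, and others named were chosen after their values were seen. A few other genes of the rule are not reported here. Fold changes and splicing results of the authors were not used.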

Additional observations from a re-analysis of the deposited data

How the results depend on the processing

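The number of genes called was 481 in the reported analysis, 285 with the chromosome medians removed, 228, 115, 222 and 112 in DESeq2 (Wald local, Wald parametric, LRT local and LRT parametric) and 194 to 433 with 1 library left out, lowest without knockdown 1. The number of sterol genes with an adjusted p under 0.05, 2 in the reported analysis, was 1 with the replicate block (*Insig1*), 0 in each of the 4 DESeq2 configurations, 0 with the chromosome medians removed, and 0 to 1 with 1 library left out, with 0 only without scrambled 2. The cause of these differences was not tested. The median log2 fold change of the sterol genes, 0.32, lay between 0.28 and 0.51 in the 16 alternatives. Signs turned for genes that did not pass the test. *Fdft1* was at 0.33 with the chromosome medians removed and between -0.33 and 0.38 with 1 library left out, *Sqle* between -0.17 and 0.22, and *Srebf2* between -0.092 and 0.14. Besides *Hmgcs1* and *Des*, the replicate block changed no call among the genes named. With 13 to 27 reads per library for *Lss* and 6 to 18 for *Idi1*, counting alone limits what these libraries can show for both.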

Other observations

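Of the branch that turns farnesyl diphosphate into prenyl groups, dolichol and ubiquinone, 8 of 9 genes were tested, with 4 positive and 4 negative log2 fold changes from -0.21 to 0.29 and a median of 0.05, and 0 passed the test in either direction (edgeR), where 2.51% of all genes tested were higher and 3.44% lower. At an unadjusted p under 0.05, 0 were higher and 0 lower, against 10.3% and 11.5% of all genes tested. Of 10 genes for sterol export, storage and sensing of oxysterols, 5 were tested and 0 passed in either direction, against the same 2.51% and 3.44%, with a median of 0.18. At an unadjusted p under 0.05, 1 was higher, against 10.3%. This was *Mylip*, a ubiquitin ligase induced by oxysterols, with 3 and 10 reads in the scrambled libraries against 13 and 11 in the knockdown libraries (adjusted p = 0.213). The export pumps *Abca1* and *Abcg1* had no reads in any library.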
